A study of Mus musculus with 2 samples.

Results

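The proteasome subunit genes are described here in 46C mouse embryonic stem cells (mESCs) that did or did not overexpress polyadenylated TERRA, the RNA transcribed from telomere repeats. A gene was taken as a member where its symbol in the deposited table is Psm, a letter from a to g and a number, which holds for 50 of the 18888 genes. These are 7 genes of the alpha rings (Psma) and 7 of the beta rings (Psmb) of the 20S core, 5 inducible or tissue-specific core genes, and 6 ATPases (Psmc) of the 19S cap. The rest are 14 other cap genes (Psmd), 6 genes of activators and an inhibitor (Psme, Psmf), 4 assembly factors (Psmg) and 1 gene, Psmc3ip, that carries the symbol but encodes a meiotic recombination factor and no proteasome protein.

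Both groups were cells of the 46C line at passages 21 to 24, grown on gelatin in the usual mESC medium. PB cells carried the empty PiggyBac vector, and PB-TERRA cells carried the same vector with telomere repeats that give polyadenylated TERRA. Total RNA of each was sequenced as 1 library, so no spread between cultures can be estimated, and whether the cells were a clone or a pool is not stated. The comparison is of 1 library with another, and the culture and the vector cannot be told apart.

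The proteasome is the large protease that breaks down proteins tagged with ubiquitin. Its 20S core is a barrel of alpha and beta rings, with the cutting sites inside on the beta subunits Psmb5, Psmb6 and Psmb7. The 19S cap on the end of the barrel binds the tagged protein, removes ubiquitin and unfolds the protein with a ring of ATPases. Other caps, the PA28 and PA200 activators, open the barrel without using ubiquitin. In cells exposed to interferon gamma, the subunits Psmb8, Psmb9 and Psmb10 replace the cutting subunits and form the immunoproteasome, which supplies peptides for MHC class I. The subunit genes are known to be transcribed together, with the factor NRF1 (Nfe2l1) raising them when proteasome activity falls short.

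Expression values are read as FPKM, fragment counts divided by the length of the gene and by the size of the library. The depth was read from the steps that whole reads leave in the low FPKM values of short genes, and the reads per gene estimated with it summed to 24502071 for PB and 24762252 for PB-TERRA. A difference is given as the log2 of (FPKM + 0.1) in PB-TERRA divided by (FPKM + 0.1) in PB, which understates the change of low genes. Beside it stands the exact 95% interval of the ratio of the reads, which covers counting error only and was not checked against replicates. A filter of at least 1 FPKM in at least 1 library was passed by 12263 genes, with a median log2 ratio of -0.0044. The 10 markers of mESCs were at 27.02 FPKM or more in both libraries, with Pou5f1 at 744.67 and 773.31 FPKM, and 5 were higher and 5 lower in PB-TERRA, with the interval above 0 for 4 and below 0 for 4. Ptprc, which marks leukocytes, had 0.02 and 0.01 FPKM. Fibroblast markers, 4 of 8 past the filter, summed to 19.61 and 23.21 FPKM. Of these, Col1a1 (7.99 and 12.14 FPKM) and Col1a2 (0.92 and 1.37 FPKM) were higher in PB-TERRA, and Thy1 (9.16 and 8.39 FPKM) and Fbn1 (1.54 and 1.31 FPKM) were lower, while Lum and Postn were near 0. Col1a2 passed the filter through PB-TERRA alone. Primitive endoderm markers, 5 of 7 past the filter, had higher values in PB-TERRA. Among them, Gata6 had 1.22 and 2.26 FPKM, Dab2 5.04 and 6.35 FPKM and Sparc 83.46 and 86.45 FPKM, while Pdgfra, at 0.51 and 1 FPKM, passed the filter through PB-TERRA alone. The part of these cells in the values below was not tested.

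The upstream DNA of a few members is shown, namely of constitutive subunits with the largest differences in each direction and of Psmb5 for the motif it holds. The sequences are the 120 bases before the RefSeq start on GRCm38.p6, 5′ to 3′ on the strand of the gene, with matches to 3 motifs in capitals. These motifs were the CCAAT box (CCAAT), the core of the antioxidant response element bound by NRF1 and NRF2 (TGACNNNGC), and the core of the interferon-stimulated response element (GAAA, any 2 bases, GAAA), each searched on both strands in the 250 bases before the start.
Psmb3, chr11:97703314-97703433, + strand: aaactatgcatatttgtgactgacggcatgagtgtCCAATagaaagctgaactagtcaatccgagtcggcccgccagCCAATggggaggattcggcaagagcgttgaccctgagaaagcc
Psmd8, chr7:29180674-29180793, - strand: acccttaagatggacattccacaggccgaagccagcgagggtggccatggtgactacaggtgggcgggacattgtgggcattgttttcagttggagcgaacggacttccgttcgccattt
Psmd12, chr11:107479408-107479527, + strand: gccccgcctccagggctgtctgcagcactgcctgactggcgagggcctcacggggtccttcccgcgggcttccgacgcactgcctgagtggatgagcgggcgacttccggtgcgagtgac
Psmb5, chr14:54617996-54618115, - strand: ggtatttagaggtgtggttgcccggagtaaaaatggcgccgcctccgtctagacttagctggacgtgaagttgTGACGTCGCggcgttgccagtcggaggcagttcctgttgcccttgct
Psmb3, one of the members lower in PB-TERRA, holds 2 CCAAT boxes in this stretch, whereas Psmd8, lower as well, and Psmd12, higher, hold none of the 3 motifs in it. In Psmb5 the antioxidant response element core lies from base -47 to base -39.

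Promoter windows were found for 42 of the 50 members, 45 windows in all. The CCAAT box was in 33.3% of them and in 33.8% of all 32851 windows. The antioxidant response element core was in 11.1% of member windows against 10.2% of all windows. It was found before Psmb5, Psmb6, Psmc6, Psmd9 and Psmd12. The interferon-stimulated response element core was in 6.67% of member windows (those of Psmb3, Psmd4 and Psmd9) and in 2.98% of all windows. The first 2 motifs were thus about as frequent before these genes as before others, and the share for the last rests on 3 windows. CCAAT boxes were before 5 of the 7 alpha subunit genes (Psma1, Psma2, Psma3, Psma6 and Psma7). Of the other genes with a window, they were before 1 of 4 constitutive beta genes and 2 of 4 inducible or tissue-specific genes. They were before 2 of 5 ATPases, 3 of 12 other cap genes, 1 of 6 activator and inhibitor genes and 0 of 3 assembly genes. Psmc3ip held one as well.

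The constitutive subunits were among the abundant transcripts of both libraries, and their levels lay close together. Taking the core genes and the cap genes without the 3 cap chaperones Psmd5, Psmd9 and Psmd10, 31 constitutive subunits had a median of 126.38 FPKM in PB cells against 123.99 FPKM in PB-TERRA cells. The lowest was Psma3, at 64.03 and 66.28 FPKM, and 89.2% of the genes past the filter lay below it in PB. The highest was Psmb3, at 291.95 and 257.05 FPKM, so that the range was 4.56-fold in PB and 3.88-fold in PB-TERRA. Their order was much the same in both libraries (Spearman's rho 0.96 over 31 genes, a description, since the points share 2 libraries). Shorter genes had higher FPKM (rho -0.60 in PB between gene length and level over the same 31 genes).

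Within the core, the beta ring genes were somewhat higher than the alpha ring genes. The median was 158.23 FPKM in PB cells against 152.95 FPKM in PB-TERRA cells for the 7 beta genes, and 118.43 and 117.20 FPKM for the 7 alpha genes. The 6 cap ATPases had medians of 122.28 and 117.215 FPKM. The 11 cap genes that are neither ATPases nor chaperones had 112 and 110.03 FPKM, with the smallest spread of these groups (coefficient of variation 19.1% in PB and 18.2% in PB-TERRA).

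The 2 libraries differed little in these genes. Of the 50 members, 48 passed the filter, and Psmb11 and Psme2b did not. A log2 ratio of 1 or more, up or down, was found for 0 of the 48, against 0.913% of all genes past the filter. A log2 ratio of 0.25 or more, up or down, was found for 1 member, Psmb8, against 17.6% of all genes past the filter (8.02% higher and 9.6% lower) and 7.32% of the 1734 genes that averaged 50 FPKM or more. The SD of the log2 ratio was 0.12 across the 48 members and 0.081 across the 31 constitutive subunits, compared with 0.31 across all genes past the filter and 0.25 across those that averaged 50 FPKM or more. Both broader sets hold a gene at a log2 ratio of -7.69, which widens their SDs by an amount that was not computed.

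The small differences that were present lay more often below 0 than above it, on the scale of FPKM as deposited. In PB-TERRA 32 of the 48 members were lower and 16 higher (median -0.028), whereas 50.9% of all genes past the filter lay lower and 48.6% lay higher. Rescaling both libraries to the same total (TPM) turned this to 22 lower and 26 higher, and taking off the trend with gene length turned it to 20 lower and 28 higher, with medians of 0.010 and 0.017. TPM adds the same amount to nearly every log2 ratio, and under it 58.7% of all genes were higher against 54.2% of the members, so that the members still lay below the share of all genes. With the length trend taken off, 49.8% of all genes and 58.3% of the members were higher. The interval of the reads lay below 0 for 13 members (27.1%) and above 0 for 3 (6.25%). Among all genes past the filter it lay below 0 for 17.5% and above 0 for 18.1%. Of the 35 members that averaged 50 FPKM or more, it lay below 0 for 12 (34.3%) and above 0 for 3 (8.57%), against 31.9% and 26.9% of all genes at that level. The intervals of Psma1, Psma2, Psmc2, Psmd14 and Psmg1 lay below 0 on the deposited scale but included 0 under at least 1 of the other scalings or at 99%, and that of Psmb7, above 0, included 0 at 99%.

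Most members are short and abundant, and such genes were lower in PB-TERRA in general. The median length of the members past the filter was 1342 bases, and 39 of the 48 were under 2000 bases. With the 12263 genes put into length deciles, the shortest had a median log2 ratio of -0.059 and the longest one of 0.047 (Spearman's rho between length and log2 ratio 0.18, across genes, which are not independent replicates). Of the 889 genes under 2000 bases that averaged 50 FPKM or more, 64.7% were lower, and the interval lay below 0 for 41.3% and above 0 for 16.2%. Of the 28 members in the same range of level and length, 21 (75.0%) were lower, with the interval below 0 for 10 (35.7%) and above 0 for 3 (10.7%). The share of members with an interval below 0 was thus not above that of all short, abundant genes.

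**Figure D1:**
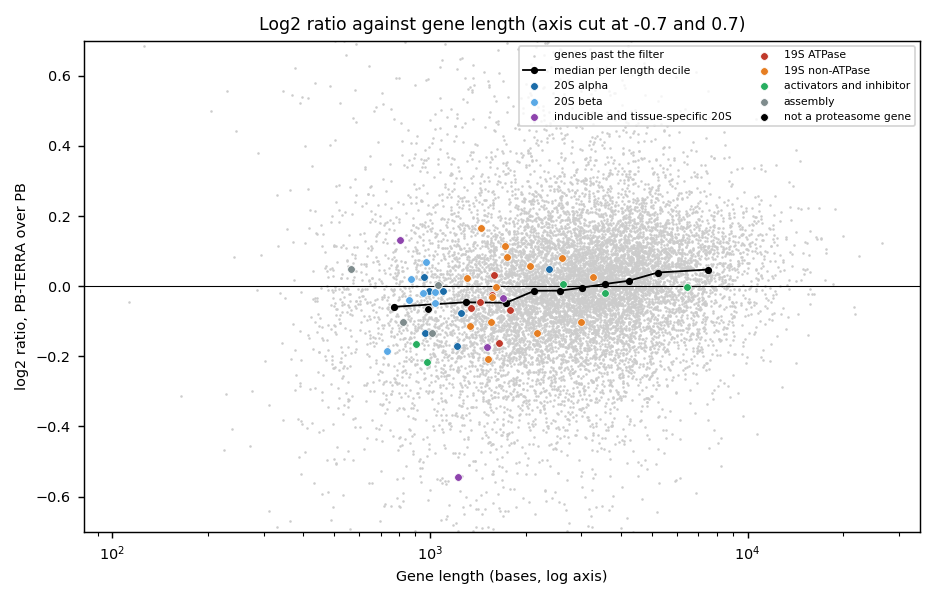
Log2 of the PB-TERRA to PB quotient of FPKM + 0.1 against gene length in bases on a log axis, for the genes past the filter (grey) and the members (coloured by role), with the median of each length decile as a black line. The line climbs from -0.059 to 0.047, and most members lie at its short end, on both sides of it.

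In the alpha rings, which form the outer gates of the barrel, 3 of 7 genes were lower beyond counting error and 0 were higher, next to 41.3% of all short, abundant genes lower in this way. Psma3, at 2374 bases, is longer than the genes of that share. Of the 3, Psma5 kept its interval below 0 with the length trend taken off, and Psma1 and Psma2 did not. Psma5 had 110.85 FPKM in PB cells against 98.50 in PB-TERRA cells (2999 and 2694 reads), a log2 ratio of -0.17 with an interval from -0.25 to -0.095. Psma2 had 170.70 and 155.58 FPKM, a log2 ratio of -0.13 (interval -0.20 to -0.065). Psma1 had 130.85 and 123.99 FPKM, a log2 ratio of -0.078 (interval -0.14 to -0.010). These 3 genes were lower by 5.24% to 11.1% of their FPKM in PB. For the other 4 the interval included 0, with log2 ratios from -0.015 in Psma4 and -0.014 in Psma6 to 0.027 in Psma7 and 0.050 in Psma3. Summed over the 7 genes, the log2 ratio of the reads was -0.048 (interval -0.075 to -0.021), against -0.074 for the summed reads of all short, abundant genes. The median of the 7 was -0.015, and became 0.033 with the length trend taken off and 0.023 under TPM.

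In the beta rings 1 of 7 genes was lower beyond counting error and 1 higher, against 41.3% and 16.2% of all short, abundant genes. Psmb3, a structural subunit without a cutting site, had 291.95 FPKM in PB cells against 257.05 in PB-TERRA cells (4427 and 3941 reads), a log2 ratio of -0.18 (interval -0.25 to -0.12). Psmb7, which carries the trypsin-like site, had 190.61 and 199.93 FPKM (4000 and 4242 reads), a log2 ratio of 0.069 (interval 0.0062 to 0.13). For the other cutting subunits the interval included 0. Psmb5, the chymotrypsin-like subunit, had 134.34 and 136.35 FPKM, and Psmb6, the caspase-like subunit, had 158.23 and 152.95 FPKM. Psmb1, Psmb2 and Psmb4, which have no cutting site, had log2 ratios of -0.018, -0.040 and -0.019, and their intervals included 0.

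Several core genes have pseudogenes, that is, copies elsewhere in the genome that encode no working protein, with which short reads can be shared. In the GENCODE M21 annotation of GRCm38, 23 of the 50 member transcripts had no stretch of 50 bases in common with the transcript of another gene. A share of 50% or more was found for 5 members, among them Psmb5 (57.1%), Psmb3 (55.8%) and Psma5 (55.4%). The stretches below, from exon 3 of Psmb5 and exon 2 of Psmb3, are shown because reads inside their capitals fit the pseudogene Gm3375 or AC114990.1 as well as the member. The capitals mark 154 and 108 coding bases shared without a mismatch.
Psmb5, chr14:54614318-54614481, - strand: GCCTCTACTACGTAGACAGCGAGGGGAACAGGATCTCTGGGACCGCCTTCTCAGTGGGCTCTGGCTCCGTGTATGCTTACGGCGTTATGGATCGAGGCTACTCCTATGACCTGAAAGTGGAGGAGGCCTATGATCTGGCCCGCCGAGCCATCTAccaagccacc
Psmb3, chr11:97703855-97703972, + strand: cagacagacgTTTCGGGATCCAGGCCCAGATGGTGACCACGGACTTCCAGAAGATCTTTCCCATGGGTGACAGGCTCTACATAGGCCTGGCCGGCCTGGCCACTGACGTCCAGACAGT
How the reads were divided between such copies is not given in the sources used here, so the single values of these 3 genes are uncertain.

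The table holds a gene model predicted by the authors, BGI_novel_G000685, that is annotated as 20S beta 5, the protein that Psmb5 encodes. It had 39.23 FPKM in PB cells against 31.00 FPKM in PB-TERRA cells, a log2 ratio of -0.34 (interval -0.50 to -0.18). With its reads added to those of Psmb5, the sums were 3247 and 3163, which made the log2 ratio -0.054 (interval -0.12 to 0.017). The sign of Psmb5 thus depended on whether this model was counted with it, and neither value lay beyond counting error. A second model, BGI_novel_G000080, annotated as alpha 5, had 0.21 and 0.08 FPKM and left the log2 ratio of Psma5 at -0.17 when added to it.

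The immunoproteasome subunits had far lower levels than the subunits they replace, and Psmb8 and Psmb9 rested on few reads. Psmb8 had 1.78 FPKM in PB cells against 1.19 in PB-TERRA cells (48 and 33 reads), and its log2 ratio of -0.54, the lowest of the members, had an interval from -1.24 to 0.11. Psmb9 had 1.69 and 1.86 FPKM (29 and 32 reads), a log2 ratio of 0.13 (interval -0.65 to 0.90). Psmb10 was higher than both, at 10.51 and 9.30 FPKM (361 and 323 reads), with a log2 ratio of -0.17 (interval -0.40 to 0.044). None of these differences was detectable at this depth.

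Per length, the replacement subunits made up a small part of each pair. Psmb8 was 1.30% of Psmb8 and Psmb5 together in PB (exact 95% interval 0.957% to 1.72%) and 0.872% in PB-TERRA (0.601% to 1.22%). Psmb9 was 1.07% of its pair with Psmb6 in PB (0.716% to 1.53%) and 1.20% in PB-TERRA (0.824% to 1.69%). Psmb10 was 5.23% of its pair with Psmb7 in PB (4.71% to 5.79%) and 4.45% in PB-TERRA (3.98% to 4.95%). In each of the 3 pairs the intervals of the libraries overlapped. Overlap does not show that the shares were equal, and their difference was not tested. Psmb11, the subunit known from the thymic cortex, was at 0.01 FPKM in PB, the lowest value the table gives, and at 0.02 FPKM in PB-TERRA. Psma8, the alpha subunit of testis proteasomes and the counterpart of Psma7, had 4.11 and 4.01 FPKM, or 3.60% (3.06% to 4.20%) and 3.46% (2.94% to 4.04%) of its pair with Psma7. The 4 meiotic germ cell markers listed all passed the filter, Stra8 through PB-TERRA alone. Sycp3 had 23.12 and 20.97 FPKM, Dmc1 2.17 and 1.56 FPKM (interval -0.92 to -0.040), Sycp1 1.78 and 1.93 FPKM and Stra8 0.87 and 1.11 FPKM, and the other 3 intervals included 0.

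The 6 ATPases of the cap, which unfold the substrate, were lower in 5 cases and higher in 1, with the interval below 0 for 2, against 64.7% lower and 41.3% with the interval below 0 among all short, abundant genes. Psmc3 had 118.18 FPKM in PB cells against 105.70 in PB-TERRA cells (4452 and 4025 reads), a log2 ratio of -0.16 (interval -0.22 to -0.099). Psmc2 had 107.47 and 102.47 FPKM, a log2 ratio of -0.069 (interval -0.13 to -0.0078). The other 4 intervals included 0, that of Psmc5 barely, at 134.54 and 128.73 FPKM (interval -0.13 to 0.00013). Psmc4 was the most abundant ATPase, at 171.05 and 165.67 FPKM, and Psmc6 the least, at 81.66 and 80.23 FPKM. Psmc1 was the 1 higher gene, at 126.38 and 129.18 FPKM.

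The other cap genes went both ways, and the largest differences of the constitutive subunits were among them. Psmd8, a subunit of the lid, had 112.00 FPKM in PB cells against 96.88 in PB-TERRA cells (3885 and 3397 reads), a log2 ratio of -0.21 (interval -0.28 to -0.14). Psmd12, also of the lid, had 101.53 and 109.94 FPKM (4003 and 4383 reads), a log2 ratio of 0.11 (interval 0.053 to 0.18). Psmd11, a lid scaffold subunit, had 105.73 and 112.02 FPKM (4221 and 4521 reads), a log2 ratio of 0.083 (interval 0.022 to 0.14). Psmd8 and Psmd12 share 0% of their 50-base stretches with other annotated genes, while 18.9% of those of Psmd11 occur in A730017L22Rik.

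Further lid and base genes were lower. Psmd3, of the lid, had 120.62 FPKM in PB cells against 110.03 in PB-TERRA cells, a log2 ratio of -0.13 (interval -0.19 to -0.080). Psmd14, the deubiquitinase that removes ubiquitin chains, had 102.04 and 95.05 FPKM, a log2 ratio of -0.10 (interval -0.17 to -0.035). In the base, Psmd2, a docking site for ubiquitin shuttles, had 132.09 and 122.98 FPKM, a log2 ratio of -0.10 (interval -0.15 to -0.061). Psmd4, a ubiquitin receptor, had 135.68 and 125.35 FPKM, a log2 ratio of -0.11 (interval -0.18 to -0.050). Psmd1, the other large base scaffold, had 122.52 and 124.84 FPKM, and its interval included 0. Of the 8 lid genes, 3 were lower and 2 higher beyond counting error, against 41.3% lower and 16.2% higher of all short, abundant genes, although Psmd3 is longer than 2000 bases. The other 3, Psmd6, Psmd7 and Psmd13, had log2 ratios of 0.024, -0.0032 and -0.030, and their intervals included 0.

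The 3 cap chaperones, which help assemble the base and are not part of the finished cap, had log2 ratios above 0, as did 48.6% of all genes past the filter, and each interval included 0. Psmd10 had 11.99 FPKM in PB cells against 13.47 in PB-TERRA cells (interval of the log2 ratio -0.032 to 0.37), Psmd9 had 10.52 and 11.12 FPKM, and Psmd5 had 49.27 and 51.23 FPKM. Their summed reads, 3389 and 3607, had a log2 ratio of 0.074 (interval 0.0061 to 0.14), to which Psmd5 gave most reads. The set of 3 was picked after the values were known.

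**Figure D2:**
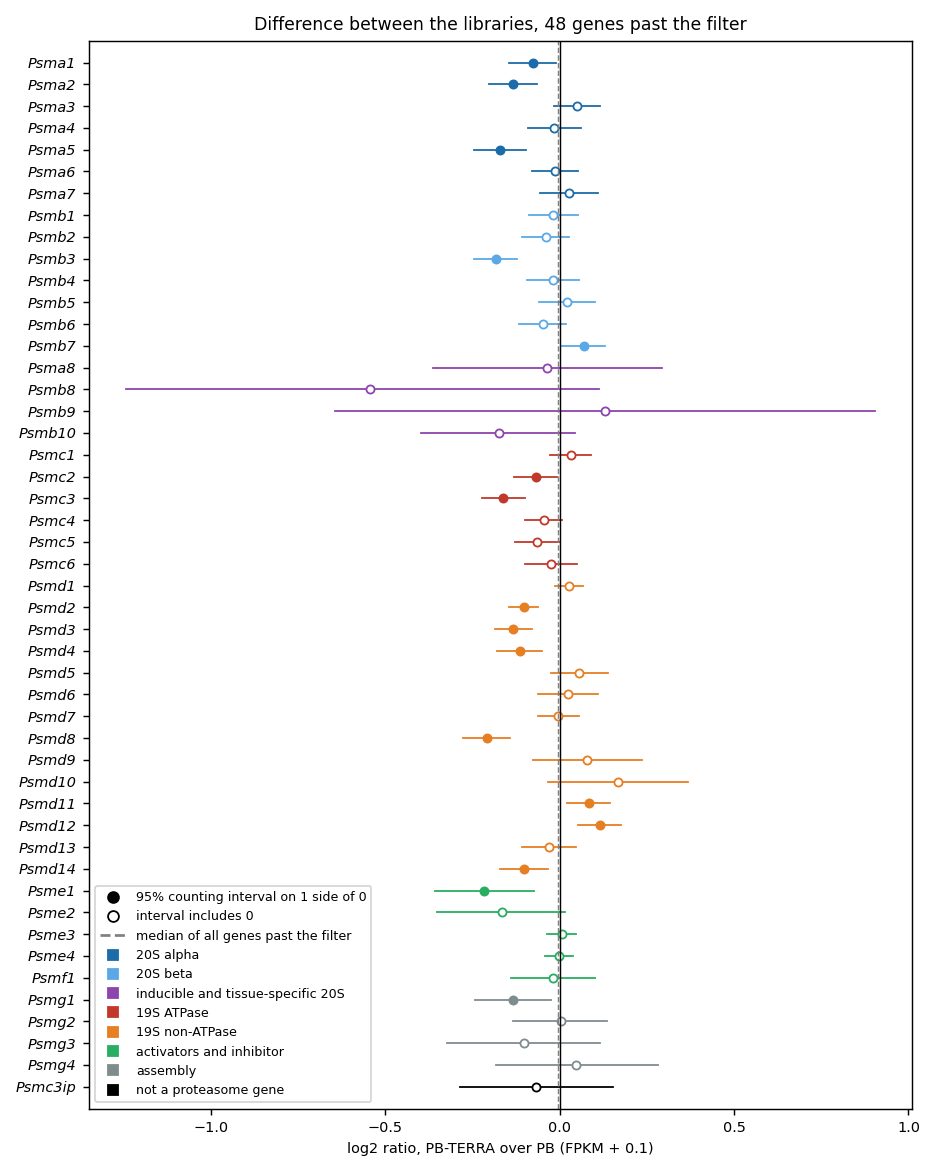
Log2 of the PB-TERRA to PB quotient of FPKM + 0.1 (points) with the exact 95% counting interval of the reads (lines) for the 48 members past the filter, coloured by role, with filled points where the interval excludes 0. The filled points are 13 members below 0 and 3 above it (Psmb7, Psmd11 and Psmd12), and the widest intervals belong to Psmb8 and Psmb9; 20 of the 48 points would lie below 0 with the length trend taken off, against 32 here.

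Of the 5 activator and inhibitor genes past the filter, Psme1 had an interval below 0 and 0 had one above, against 17.5% and 18.1% of all genes past the filter. Psme1, the PA28 alpha subunit, had 41.54 FPKM in PB cells against 35.76 in PB-TERRA cells (880 and 766 reads), a log2 ratio of -0.22 (interval -0.36 to -0.075). Its partner Psme2, PA28 beta, had 26.84 and 23.91 FPKM (521 and 469 reads), a log2 ratio of -0.17 with an interval from -0.35 to 0.015. Psme2 shares 59.3% of its stretches with Psme2b, which was at 0.01 and 0.06 FPKM, and adding these reads left the log2 ratio at -0.16. Psme3, the nuclear PA28 gamma, was the most abundant activator at 152.38 and 153.10 FPKM, with an interval from -0.035 to 0.048. Psme4 (PA200) had 62.98 and 62.87 FPKM, and the inhibitor gene Psmf1 (PI31) had 13.44 and 13.26 FPKM. For both of these the interval included 0.

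The 4 Psmg assembly factors of the core had lower levels than the constitutive subunits, except that Psmg1 was just above Psma3 (64.03 FPKM) in PB. Psmg1 had 64.60 FPKM in PB cells against 58.89 in PB-TERRA cells (1432 and 1319 reads), a log2 ratio of -0.13 (interval -0.24 to -0.026). Psmg2, with which it forms a dimer, had 38.32 and 38.39 FPKM. Psmg3 had 20.57 and 19.16 FPKM and Psmg4 had 27.21 and 28.14 FPKM, and the intervals of these 3 included 0. Pomp, the maturation factor of the beta rings that carries no Psm symbol, had 147.97 and 143.96 FPKM, a log2 ratio of -0.040 (interval -0.12 to 0.045). Psmc3ip had 16.33 and 15.59 FPKM, and its interval included 0.

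Proteins bound to the cap were listed apart from the members. Of 11 listed, 10 are in the table and passed the filter, 7 of them higher and 3 lower, with the interval above 0 for 3 and below 0 for 1, against 18.1% and 17.5% of all genes past the filter. Uchl5, a deubiquitinase of the cap, had 36.25 FPKM in PB cells against 43.52 in PB-TERRA cells, a log2 ratio of 0.26 (interval 0.17 to 0.36). Usp14, the other cap deubiquitinase of this kind, had 45.81 and 49.19 FPKM, a log2 ratio of 0.10 (interval 0.044 to 0.16). AI314180, annotated as the proteasome component ECM29, had 17.98 and 15.28 FPKM, a log2 ratio of -0.23 (interval -0.32 to -0.16). Adrm1, a ubiquitin receptor that holds Uchl5 on the cap, had 152.44 and 153.17 FPKM, a log2 ratio of 0.0069.

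The transcription factors that raise proteasome genes, and their partners, differed in both directions. Nfe2l1 (NRF1) had 44.49 FPKM in PB cells against 46.90 in PB-TERRA cells, a log2 ratio of 0.076 (interval 0.017 to 0.13). Nfe2l2 (NRF2) had 35.83 and 36.02 FPKM, and Ddi2, the protease that activates NRF1, had 38.60 and 38.31 FPKM, with intervals that included 0. Among the small MAF partners, Mafg was at 9.37 and 11.72 FPKM (log2 ratio 0.32, interval 0.12 to 0.52) and Maff at 7.48 and 6.09 FPKM (log2 ratio -0.29, interval -0.53 to -0.064). Of the 12 genes of this list past the filter, out of 13, 7 were higher and 5 lower, with a median log2 ratio of 0.017. Among all genes past the filter, 48.6% were higher and 50.9% lower. The interval lay above 0 for 2 of the 12 and below 0 for 1, against 18.1% and 17.5% of all genes past the filter.

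The steps before the proteasome gave medians near that of all genes. The median log2 ratio was -0.021 for 8 ubiquitin genes and E1 enzymes, -0.012 for the 7 of 8 ubiquitin shuttle receptors past the filter, and -0.017 for 10 genes of the p97 segregase. The polyubiquitin gene Ubb had 1218.01 FPKM in PB cells against 1104.30 in PB-TERRA cells, a log2 ratio of -0.14 (interval -0.16 to -0.12). The E1 enzyme gene Uba6 had 20.49 and 23.00 FPKM (log2 ratio 0.17, interval 0.088 to 0.24).

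Other multi-subunit complexes of the cytosol are given for scale, with no test between lists. The chaperonin CCT had a median log2 ratio of -0.11 over 8 genes, 6 of them with the interval below 0. The translation factor eIF3 had -0.044 over the 13 of 14 genes past the filter, with 8 below and 2 above. The COP9 signalosome, whose subunits are relatives of the lid subunits, had -0.021 over 9 genes, with 2 below and 1 above. The 31 constitutive proteasome subunits had -0.030, with 11 below and 3 above. Among all genes that averaged 50 FPKM or more, 31.9% lay below and 26.9% above.

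Several genes that work with the immunoproteasome in antigen processing were lower in PB-TERRA. Of 13 listed, 11 passed the filter, 8 lower and 3 higher. Their median was -0.17 on the log2 scale, and the interval lay below 0 for 6 and above 0 for 0, against 17.5% and 18.1% of all genes past the filter. Among the genes of the list that averaged 5 FPKM or more, the median was -0.41. Erap1, which trims peptides, had 3.90 FPKM in PB cells against 2.59 in PB-TERRA cells (log2 ratio -0.57, interval -0.83 to -0.35). Irf1, a transcription factor of the interferon response that drives immunoproteasome genes, had 21.14 and 14.55 FPKM (log2 ratio -0.54, interval -0.68 to -0.40). The MHC class I genes H2-K1 and B2m had log2 ratios of -0.42 (interval -0.57 to -0.29) and -0.41 (interval -0.59 to -0.23).

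The peptide transporter genes Tap1 and Tap2 lie on either side of Psmb8 on chromosome 17, with Psmb9 next to Tap1. Tap2 was lower, at 1.83 and 1.30 FPKM (log2 ratio -0.46, interval -0.94 to -0.057), and Tap1 was at 3.04 and 3.35 FPKM, with an interval that included 0. The 5 members that interferon gamma is known to induce (Psmb8, Psmb9, Psmb10, Psme1 and Psme2) had 82.36 FPKM in sum in PB and 72.02 in PB-TERRA, and 4 of the 5 were lower, against 50.9% of all genes past the filter. Of these, Psme1 alone had an interval below 0. Their summed reads, 1839 and 1623, had a log2 ratio of -0.20 (interval -0.29 to -0.099). Psme1 and Psme2 gave most of these reads, and the 5 genes were put together after their values were seen. The interferon gamma receptor genes Ifngr1 and Ifngr2 had log2 ratios of -0.0094 and 0.064, and their intervals included 0. Of the leukocyte markers, 4 of 6 passed the filter, H2-Ab1 through PB alone. Their sum of 51.47 FPKM in PB cells against 70.94 FPKM in PB-TERRA cells was mostly Laptm5, at 41.14 and 63.51 FPKM. H2-Ab1, an MHC class II gene, had 1.20 and 0.37 FPKM (log2 ratio -1.47, interval -2.88 to -0.63), Coro1a had 7 and 5.22 FPKM (log2 ratio -0.42, interval -0.69 to -0.16), and Cd74 had 2.13 and 1.84 FPKM, with an interval that included 0. The defining markers Ptprc and H2-Aa were near 0. The part of other cell types in these values was not tested, and in bulk RNA fewer cells of a type and less RNA per cell cannot be told apart.

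**Figure D3:**
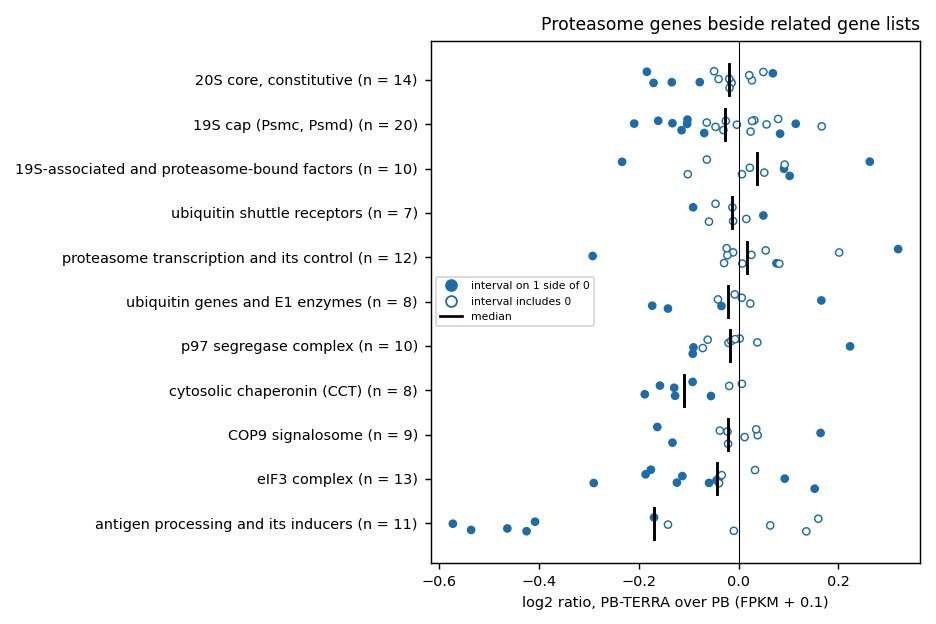
Log2 of the PB-TERRA to PB quotient of FPKM + 0.1 for each gene past the filter in the constitutive core, the cap and 9 related lists, with filled points where the 95% counting interval excludes 0 and a black bar at the median. The core and cap points cluster near 0, and the antigen processing list reaches furthest to the left, with Erap1 at -0.57.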

How the data were processed

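Total RNA from each of the 2 cell populations went into 1 library and was sequenced with BGISEQ500 protocols. The deposited table gives 1 value per gene and library, read here as FPKM, which the authors had normalised for length and depth. The header names no unit. Values have 2 decimals and a lowest value of 0.01. The submitters' processing notes name HISAT, Cufflinks and mm9, without versions. The table also holds the authors' fold changes, p-values and adjusted p-values, which were not used.

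Reads were estimated as FPKM times gene length, less 111 bases, times a fitted depth. The depth and these bases were fitted to the steps of low values, where 81.6% (PB, 619 genes) and 83.4% (PB-TERRA, 631 genes) came out within 0.15 of a whole read. Why the 111 bases are needed is not known. Intervals are exact binomial (Clopper-Pearson). With 1 library per group there is no test, as the design set, and an interval compares libraries, not conditions. For log2 ratios 0.1 FPKM was added, which understates the change of low genes, and genes under 1 FPKM in both libraries were left out. The steps were tested on simulated data.

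Members and lists were chosen with earlier results of these data known. All members could be named, and of each list those with the 3 highest or 3 lowest ratios or a needed level. Promoters are from RefSeq (GRCm38.p6) and transcripts from GENCODE M21, builds other than that of the files. No promoter window was matched for Psma8, Psmb1, Psmb2, Psmb7, Psmc3, Psmd3, Psmd7 and Psmg2. Intervals were computed with scipy 1.17.1, tables with pandas 2.3.3 and numpy 2.4.6, and figures with matplotlib 3.10.9, under Python 3.11.15. The alternatives tried are a pseudocount of 0.01 or 1 FPKM, other filters, median centring, median-of-ratios size factors, removal of the length trend, TPM and 99% intervals. TPM and the length trend for intervals were added after seeing the data. A few genes of the related lists are not reported here by name.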

Additional observations from a re-analysis of the deposited data

How the results depend on the processing

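No paired analysis was possible because each group has 1 library, and for the same reason no replicate could be left out. Alternatives for the pseudocount, the filter, the scaling, the length trend and the interval were compared with the reported values. Of 189 such comparisons of counts and medians, 178 stayed within 1.5 times the count or, for a median, within the median half-width of the counting intervals of the genes of the same group or list. These comparisons include scaling by median-of-ratios size factors, under which no value changed, and the range of levels under TPM, which cannot change. A median that changed sign within the half-width was counted as kept. That of the members was -0.028 as reported and 0.017 with the length trend removed. With the length trend removed, which for the intervals was added after seeing the data, 28 members were higher and 20 lower (16 and 32 as reported), the interval lay above 0 for 8 members in place of 3, 2 members were past a log2 ratio of 0.25, and the median of the beta ring genes was 0.050. Rescaling to TPM, added after seeing the data, which moves nearly every log2 ratio by the same amount and put 58.7% of all genes higher, gave 26 members higher and the interval above 0 for 9, and moved the median of the CCT genes to -0.072. With no filter 2 members were past a log2 ratio of 0.25, and with a mean of at least 5 FPKM 0 were, while the median of the antigen processing list became -0.41. Of the 13 members with the interval below 0, 8 kept it there with the length trend removed, under TPM, against the median of all genes and at 99% (Psma5, Psmb3, Psmc3, Psmd2, Psmd3, Psmd4, Psmd8 and Psme1), and of the 3 above 0, 2 did (Psmd11 and Psmd12). The cause of the shifts between scalings was not tested. At this depth the median half-width of the members' counting intervals was 0.070 on the log2 scale, and the spread between cultures is unknown. Members with few reads had far wider intervals, among them Psma8, Psmb8, Psmb9, Psmb10, Psmg3, Psmg4 and Psmc3ip.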

Other observations

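The deposited table assigns proteasome KEGG entries to 17 genes that carry no Psm symbol, and these were looked at after the values were seen. Emc8-1190005i06rik, whose entries are PA28 beta and a GINS subunit, had 2.25 FPKM in PB and 0.99 FPKM in PB-TERRA (49 and 22 reads), a log2 ratio of -1.11 (interval -1.97 to -0.42). Emc8 and Emc9, subunit genes of the endoplasmic reticulum membrane complex, carry the PA28 beta entry too, and had 18.70 and 17.45 FPKM and 1.11 and 0.99 FPKM. Emc8-1190005i06rik and Emc9 passed the filter through PB alone. Mesdc2, a chaperone gene for lipoprotein receptors entered as a cap subunit, had 16.59 and 19.78 FPKM, a log2 ratio of 0.25 (interval 0.16 to 0.35). A list built from these entries would therefore hold genes that encode no proteasome protein. Shfm1 (Sem1), a true lid subunit without a Psm symbol, had 84.22 and 87.29 FPKM, and its interval included 0.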
